A study of Mus musculus with 12 samples.

Results

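The immediate-early response genes are a class of transcripts that cells switch on within minutes of a signal, without making new protein first. The genes were chosen from a list of 36 symbols that name the usual members of the class, and 34 of them were measured, out of 22180 genes represented on the array. A gene was taken where a probe set carried exactly 1 gene symbol, and of several probe sets for a gene the one with the highest mean over all 12 arrays was used, which was needed for 5 of the 34. Cyr61 and Ctgf were measured under their current symbols Ccn1 and Ccn2, and Fosl1 and Gadd45a were not analysed here. The list was proposed after differences between the groups had been seen in these data, so the counts below are descriptions and not independent evidence of a direction.

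RNA came from livers of male C57BL6/J mice aged 8 to 10 weeks and kept at 22 °C with 12 h of light and 12 h of dark. All animals had received an Ad5 adenovirus, a human virus used as a gene carrier, by tail vein, carrying either green fluorescent protein (Ad-GFP, 6 arrays, GFP 1 to GFP 6) or human apolipoprotein F (Ad-hApoF, 6 arrays, hApoF 7 to hApoF 12). ApoF is a secreted protein found on lipoproteins. The livers were taken 4 days after injection, at 3 pm after 6 h without food. Both groups therefore carried a virus, and the labels give no viral dose, no batch and no statement that each array is a separate animal, so the p-values cover only the variation among these samples, which may be technical. Every value is a log2 RMA level, that is, a background-corrected, quantile-normalized probe set summary, and a difference of 1 is a doubling.

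In textbook accounts, growth factors, stress, cytokines and hormones act through kinases such as ERK, JNK, p38 and protein kinase A on transcription factors that already sit at these genes, mainly SRF with its partners and CREB. The first products are themselves transcription factors (Fos, Jun and Egr families), followed by proteins that end the response: phosphatases that switch the kinases off, and proteins that destroy short-lived mRNAs. In liver the class is known for its rapid response to partial hepatectomy, to fasting hormones and to the handling of the tissue itself.

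The stretches of DNA just upstream of the transcription starts show where such factors could sit, and 5 of them are shown because these genes carry the results below: Fos, Btg2, Zfp36, Dusp1 and Ccn1. They are from RefSeq on the mouse build GRCm38.p6, which had an entry for 27 of the 34 genes, and each is the 250 bases before the start, 5′ to 3′ on the gene's strand. Capitals mark the motif matches. Fos lies at chr12:85473640-85473889 on the plus strand. The others are on the minus strand, Btg2 at chr1:134079156-134079405, Zfp36 at chr7:28379229-28379478, Dusp1 at chr17:26508473-26508722 and Ccn1 at chr3:145649986-145650235.
Fos: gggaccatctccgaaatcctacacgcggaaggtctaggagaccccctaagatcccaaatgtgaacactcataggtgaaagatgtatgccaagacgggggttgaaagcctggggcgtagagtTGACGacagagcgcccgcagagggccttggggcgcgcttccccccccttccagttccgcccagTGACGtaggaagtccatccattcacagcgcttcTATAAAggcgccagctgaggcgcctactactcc
Btg2: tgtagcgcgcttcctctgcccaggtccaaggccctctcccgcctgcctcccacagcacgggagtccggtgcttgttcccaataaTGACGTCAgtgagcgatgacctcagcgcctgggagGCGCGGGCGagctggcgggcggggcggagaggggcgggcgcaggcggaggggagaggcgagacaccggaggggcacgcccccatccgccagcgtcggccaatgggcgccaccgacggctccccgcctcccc
Zfp36: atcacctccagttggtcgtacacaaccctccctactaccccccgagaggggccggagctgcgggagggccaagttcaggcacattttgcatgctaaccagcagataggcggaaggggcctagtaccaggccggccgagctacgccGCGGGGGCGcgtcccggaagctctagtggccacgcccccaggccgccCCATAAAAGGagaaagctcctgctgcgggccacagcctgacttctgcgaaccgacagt
Dusp1: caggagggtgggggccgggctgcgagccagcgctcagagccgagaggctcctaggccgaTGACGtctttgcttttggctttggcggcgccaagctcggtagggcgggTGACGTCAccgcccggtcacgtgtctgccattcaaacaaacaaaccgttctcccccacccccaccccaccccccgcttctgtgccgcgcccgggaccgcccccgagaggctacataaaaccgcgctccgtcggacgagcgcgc
Ccn1: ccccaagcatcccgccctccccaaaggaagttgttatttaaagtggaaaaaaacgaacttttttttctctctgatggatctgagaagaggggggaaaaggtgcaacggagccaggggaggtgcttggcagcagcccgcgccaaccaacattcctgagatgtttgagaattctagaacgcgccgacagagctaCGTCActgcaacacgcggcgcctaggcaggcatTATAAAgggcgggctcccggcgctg

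The motifs searched were the cAMP response element TGACGTCA, its core TGACG (which the full element contains), the AP-1 site TGANTCA and the Egr site GCGNGGGCG, each on both strands, the TATA box TATAAA on the gene's strand, and the serum response CArG box. Fos had cores starting 129 and 66 bases before the start and a TATA box at 33. Btg2 had a full cAMP response element at 166 and an Egr site at 131, and Dusp1 a full element at 143 and a further core at 191. Zfp36 had an Egr site at 105 and a CArG box at 58, and Ccn1 a core at 58 and a TATA box at 25. Of the 27 genes with an entry, 3 held the full cAMP response element (Btg2, Dusp1 and Maff), against 1.77% of 27025 genes in the RefSeq table. The core was present in 13 of the 27 against 19.8% of all genes, and the Egr site in 9 against 5.33%. A CArG box was present in 3 against 1.62%, a TATA box in 6 against 8.94% and an AP-1 site in 1, Zfp36l1, against 7.82%. These matches describe letters in a window of 250 bases and say nothing about binding or about sites farther upstream.

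The 12 arrays had medians between 4.93 and 5.03. The spread between quartiles was 3.02 to 3.16 in 5 of the GFP arrays and 2.88 to 2.99 in the hApoF arrays, and GFP 4, at 2.87, lay just below the hApoF arrays. Hepatocyte markers (Alb, Apoa1, Ttr and others) had a mean level of 12.50 in the GFP group and 12.55 in the hApoF group; these defining markers of liver were thus present on all arrays. The human transgene itself was not analysed here.

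Livers given hApoF had higher levels of 7 of the 34 genes and a lower level of 1, at an adjusted p under 0.05. The higher genes were Fos, Junb, Ier2, Zfp36, Btg2, Sik1 and Maff, and the lower gene was Klf10. Adjusted p-values of group differences are from limma with Benjamini-Hochberg adjustment over all 22180 genes, 6 arrays against 6, unless another setting is named. Over all genes the share called higher was 2.11% and the share called lower 4.8%, against 20.6% and 2.94% of the 34. An unadjusted p under 0.05 was found for 16 of the 34 and for 21.3% of all genes, the share against which the unadjusted counts below are to be read. A difference above 0 was seen for 27 of the 34 genes and below 0 for 7, against 12788 and 9392 of all 22180 genes. The median difference was 0.16, against 0.03 over all genes. The groups did not overlap for 1 gene higher in hApoF, Maff, and for none lower, where 1.49% and 3.49% of all genes had such separated groups. The mean level over the 34 genes was 6.98 ± 0.27 (SD, n = 6) in the GFP group and 7.33 ± 0.25 in the hApoF group, and the arrays of the 2 groups overlapped.

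**Figure D1:**
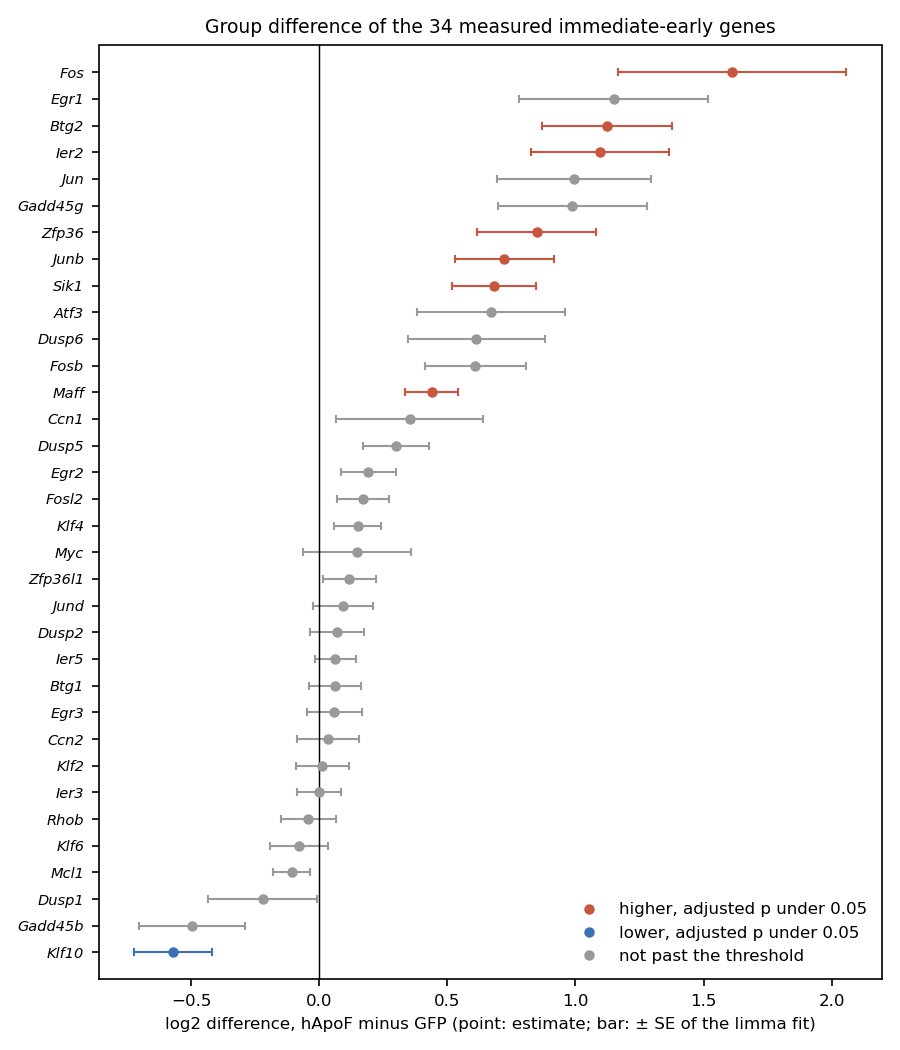
Log2 difference (hApoF minus GFP) for each of the 34 genes, with bars of 1 SE from limma and colour by call at an adjusted p under 0.05. Differences ranged from -0.57 (Klf10) to 1.61 (Fos), with 7 genes called higher and 1 lower.

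Fos and Jun proteins pair up to form the AP-1 transcription factor. Fos had the widest range of the class: the GFP arrays lay between 4.80 and 7.24 with a median of 6.10, and the hApoF arrays between 6.25 and 8.48 with a median of 7.90. GFP 4 and GFP 5 were the high GFP arrays and GFP 1 and GFP 6 the low ones, and hApoF 10 was the single hApoF array that fell among the GFP arrays. Fos rose by 1.61 (SE 0.45, limma adjusted p = 0.0407), which is 3.06-fold. Junb, a Jun family member that often restrains the activity of Jun, ran from 6.99 to 8.26 (median 7.48) in GFP and from 7.99 to 8.72 (median 8.30) in hApoF. It rose by 0.72 (SE 0.19, limma adjusted p = 0.0359), with 4 hApoF arrays above all GFP arrays.

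Jun, the partner of Fos in AP-1, lay between 7.10 and 8.99 (median 8.44) in GFP and between 8.34 and 10.01 (median 9.38) in hApoF. The difference of 0.99 (SE 0.30) had a limma adjusted p of 0.0612, just outside the threshold, although 5 of the 6 hApoF arrays were above all GFP arrays. Fosb, a Fos relative, had a difference of 0.61 (SE 0.20, limma adjusted p = 0.0799) at levels of 5.09 and 5.70. The remaining relatives Fosl2 (0.17) and Jund (0.09, and 0.11 for its second probe set) were far from the threshold.

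Egr1 is a zinc finger factor that binds GC-rich sites. Its levels were 6.11 to 8.16 (median 7.01) in GFP and 7.26 to 9.14 (median 8.32) in hApoF, again with GFP 4 and GFP 5 the high GFP arrays and hApoF 10 the low hApoF array. The difference was 1.15 (SE 0.37, limma adjusted p = 0.0748). Egr2 and Egr3, its relatives, were dim, with mean levels of 4.83 and 4.81 in GFP, near the array medians. They reached at most 5.34 on any array and differed by 0.19 and 0.06. The limma test called 0 of the 3 Egr genes, and 1 of them, Egr1, had an unadjusted p under 0.05.

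Ier2, a nuclear protein of the early growth response, ran from 6.04 to 7.31 (median 6.40) in GFP and from 6.77 to 8.52 (median 7.87) in hApoF. It rose by 1.10 (SE 0.27, limma adjusted p = 0.0228), or 2.14-fold, and 4 hApoF arrays lay above every GFP array. Ier3, a stress-inducible survival protein, and Ier5, a relative of Ier2, had differences of -0.001 and 0.06, and their arrays stayed between 5.24 and 5.93 in both groups.

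**Figure D2:**
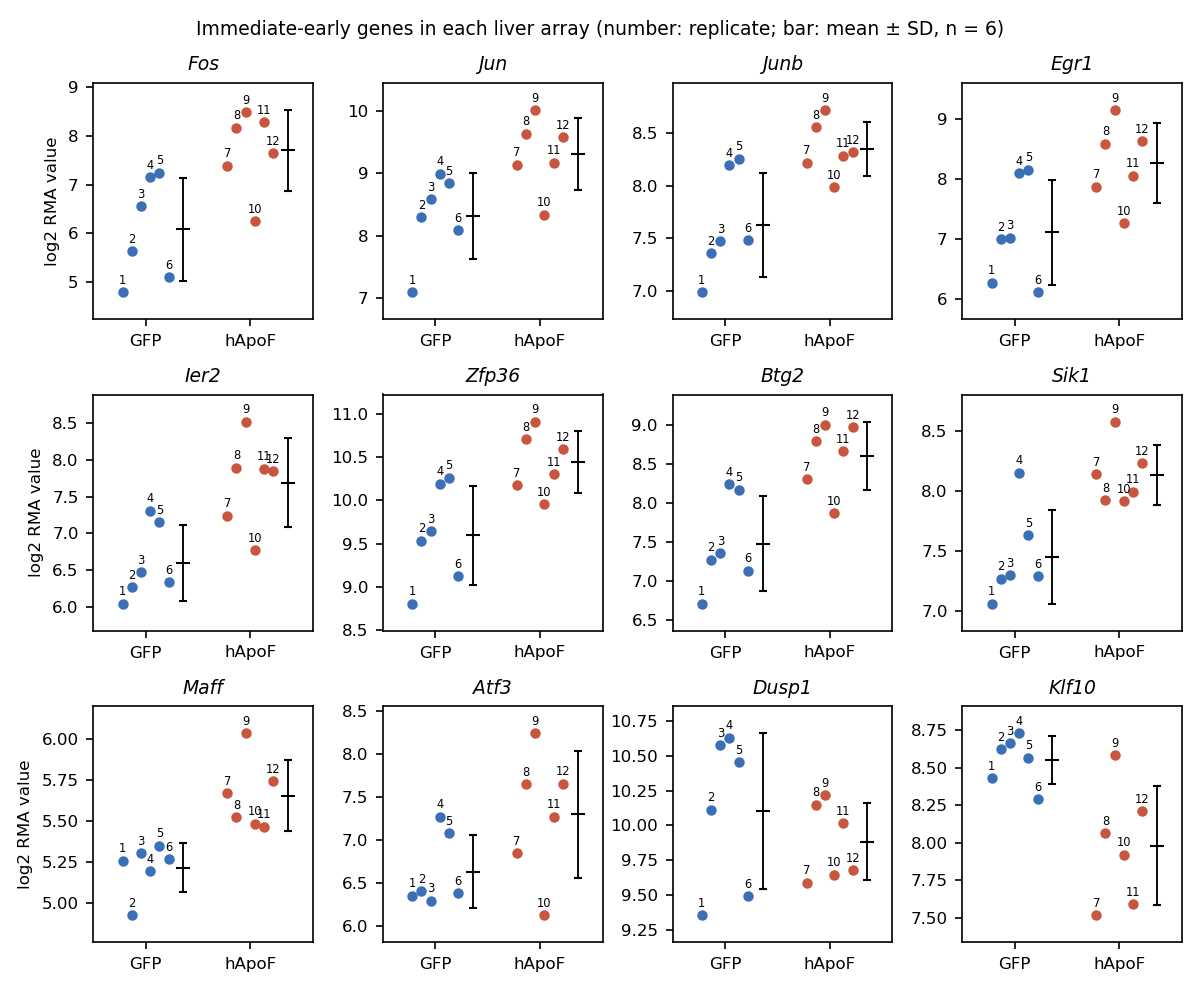
Log2 RMA level on each of the 12 arrays for 12 genes, one panel per gene; each point is an array marked with its replicate number, and the bar is the group mean ± SD (n = 6). GFP 4 and GFP 5 sit at the top of the GFP group and hApoF 10 at or near the bottom of the hApoF group in the panels of Fos, Jun, Egr1, Ier2, Zfp36 and Btg2; Maff is the gene whose groups are separated.

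Zfp36 (tristetraprolin) binds AU-rich elements and triggers the decay of cytokine and other short-lived mRNAs. Its levels were 8.80 to 10.26 (median 9.59) in GFP and 9.96 to 10.91 (median 10.45) in hApoF. It rose by 0.85 (SE 0.23, limma adjusted p = 0.0382), or 1.80-fold, with 4 hApoF arrays above all GFP arrays. The relative Zfp36l1 differed by 0.12 (limma adjusted p = 0.551).

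Btg2 is a brake on the cell cycle that also recruits the deadenylase that shortens mRNA tails. It ran from 6.71 to 8.24 (median 7.32) in GFP and from 7.87 to 9.01 (median 8.73) in hApoF, and 5 hApoF arrays lay above every GFP array. It rose by 1.12 (SE 0.25, limma adjusted p = 0.0141), or 2.18-fold. Gadd45g, a stress sensor that activates p38 and JNK, had a difference of 0.99 (SE 0.29, limma adjusted p = 0.0547) and 3 hApoF arrays above all GFP arrays. Its relative Gadd45b differed the other way, by -0.50 (limma adjusted p = 0.180), with hApoF 10 far below the rest at 5.03. Btg1, the close relative of Btg2, differed by 0.06.

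The dual-specificity phosphatases switch MAP kinases off. Dusp1, which dephosphorylates p38 and JNK in the nucleus, ran from 9.36 to 10.63 (median 10.28) in GFP and from 9.59 to 10.22 (median 9.85) in hApoF, with no hApoF array above all GFP arrays. The difference was -0.22 (SE 0.21, limma adjusted p = 0.601). Dusp6, the ERK phosphatase of the cytoplasm, differed by 0.61 (SE 0.27, limma adjusted p = 0.201), Dusp5, the nuclear ERK phosphatase, by 0.30 (0.187) and Dusp2 by 0.07 (0.760). The limma test called 0 of the 4, and 2 had an unadjusted p under 0.05.

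Klf10, a TGF-beta-inducible zinc finger repressor that in liver also follows the clock and nutrients, was the gene that went down. The GFP arrays lay tightly between 8.29 and 8.73 (median 8.59), and the hApoF arrays between 7.52 and 8.58 (median 7.99). All hApoF arrays but hApoF 9 were below every GFP array, and hApoF 9, at 8.58, lay within the GFP range. Klf10 fell by 0.57 (SE 0.15, limma adjusted p = 0.0350), or 1.48-fold. Klf2, Klf4 and Klf6, factors of the endothelium, epithelium and the wound response, had differences of 0.01, 0.15 and -0.08.

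Maff, a small Maf protein that dimerises with other leucine zipper factors, was low on all arrays but separated the groups: 4.92 to 5.35 (median 5.26) in GFP and 5.46 to 6.04 (median 5.60) in hApoF. It rose by 0.44 (SE 0.10, limma adjusted p = 0.0173), or 1.36-fold. An exact two-sided permutation test over all assignments of arrays gave p = 0.0022, the smallest it can give with 6 arrays against 6. Atf3, a stress-inducible repressor, lay between 6.29 and 7.27 (median 6.39) in GFP and between 6.12 and 8.24 (median 7.46) in hApoF. Its difference was 0.67 (SE 0.29, limma adjusted p = 0.193), with hApoF 10 below every GFP array and 3 hApoF arrays above every GFP array. Myc, the growth regulator, ran from 6.59 to 7.22 (median 7.14) in GFP and from 6.24 to 7.94 (median 7.19) in hApoF, with a difference of 0.15 (SE 0.21, limma adjusted p = 0.739).

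Sik1, a kinase that holds CREB coactivators out of the nucleus and is itself induced by cAMP, ran from 7.06 to 8.15 (median 7.29) in GFP and from 7.92 to 8.58 (median 8.07) in hApoF. GFP 4, at 8.15, was the single GFP array inside the hApoF range. Sik1 rose by 0.68 (SE 0.16, limma adjusted p = 0.0194), or 1.61-fold. The survival factor Mcl1 differed by -0.11 (limma adjusted p = 0.426) and the small GTPase Rhob by -0.04 (0.858). The secreted matricellular proteins Ccn1 and Ccn2, targets of YAP, differed by 0.35 (limma adjusted p = 0.521) and 0.03 (0.907), and a dimmer second probe set of Ccn2 by -0.28. The limma test called 0 of these 2, and 0 had an unadjusted p under 0.05.

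How far a call held when single arrays were left out differed by gene. Btg2, Sik1 and Maff kept an adjusted p under 0.05 in all 12 omissions of 1 array, with a highest limma adjusted p of 0.0383, 0.0491 and 0.0433. Fos and Junb lost their call in 9 omissions each (limma adjusted p up to 0.0951 for Fos, without GFP 6, and up to 0.0835 for Junb, without GFP 2) and kept it only without GFP 4, GFP 5 or hApoF 10. Zfp36 lost its call in 8 omissions (up to 0.0898, without GFP 6). Klf10 lost its call in 9 (up to 0.0770, without GFP 3), keeping it without GFP 6, hApoF 9 or hApoF 12, and Ier2 in 4, those of GFP 1, GFP 2, GFP 3 and GFP 6 (up to 0.0568). With limma's trend and robust settings Fos (limma adjusted p = 0.100), Zfp36 (0.0783), Ier2 (0.0530) and Junb (0.0510) lost their call, while the calls over all genes went from 1533 to 1946. The number of higher genes was 3 without GFP 1, GFP 2, GFP 3 or GFP 6 and 11 without GFP 4 or hApoF 10. Without hApoF 10 the calls gained were those of Fosb (0.0121), Jun (0.0222), Egr1 (0.0423) and Atf3 (0.0379).

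The arrays differed in the same order for many of the genes, within as well as between groups. Mean levels over the 34 genes ran from 6.64 (GFP 1) to 7.30 (GFP 5) in the GFP group and from 6.94 (hApoF 10) to 7.67 (hApoF 9) in the hApoF group. Of the 34 genes, 31 were above their own mean over 12 arrays in hApoF 9, 28 in GFP 5 and 25 in GFP 4, and 6 in GFP 1 and 9 in hApoF 10. For these genes hApoF 10 lay among the GFP arrays, and GFP 4 and GFP 5 lay among the hApoF arrays.

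To see how the genes moved together apart from the group difference, each gene's values were taken as deviations from its own group mean and correlated with those of Fos over 12 arrays. Of 33 pairs, 30 had a positive r, where 11795 of the 22179 genes other than Fos had one. An adjusted p under 0.05 (permutation within groups, two-sided, Benjamini-Hochberg over the 33 pairs) was found for 15, all positive. The permutation test was not run over all genes, so its counts have no background share. An unadjusted p under 0.05 was found for 17 pairs. By Spearman's rho 14 of the 15 pairs passed too: Fosl2 did not (rho = 0.66, permutation adjusted p = 0.0833), and the negative pair of Mcl1 did. Pairs of the 34 genes had a mean r of 0.32 over 561 pairs, against 0.0032 for pairs of all genes. An r with Fos above 0.8 was held by 11 of the 33 other members, or 33.3%, and by 77 of 22180 genes, or 0.347%. These values describe arrays that share the same processing.

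Ccn1 followed Fos most closely, with r = 0.97 (permutation p = 2e-05, adjusted p = 0.00033) and Spearman rho = 0.98 (0.00066). Its r was 0.98 within the GFP arrays and 0.97 within the hApoF arrays. Ier2 had r = 0.90 (permutation adjusted p = 0.00033) and rho = 0.91 (0.000825), and r was 0.91 and 0.93 within the groups. Zfp36 had r = 0.91 (permutation adjusted p = 0.00132) and rho = 0.89 (0.00407), Btg2 r = 0.91 (0.00132) and rho = 0.92 (0.0019), and Dusp6 r = 0.93 (0.00132) and rho = 0.94 (0.0019). These are genes of different roles, from mRNA decay to the phosphatase that switches ERK off.

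Egr1 had r = 0.90 (permutation adjusted p = 0.00202), Jun 0.89 (0.00132), Dusp1 0.88 (0.00261), Junb 0.87 (0.00209) and Fosb 0.85 (0.00132). Their rho values were 0.88, 0.86, 0.86, 0.87 and 0.84, and the r of Dusp1 was 0.94 within the GFP and 0.80 within the hApoF arrays. The other genes past the threshold were Zfp36l1 (r = 0.81), Atf3 (0.78), Jund (0.78), Fosl2 (0.74) and Sik1 (0.68). These 15 genes include some whose group means were not called different. Dusp1, Ccn1 and Dusp6 are examples.

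**Figure D3:**
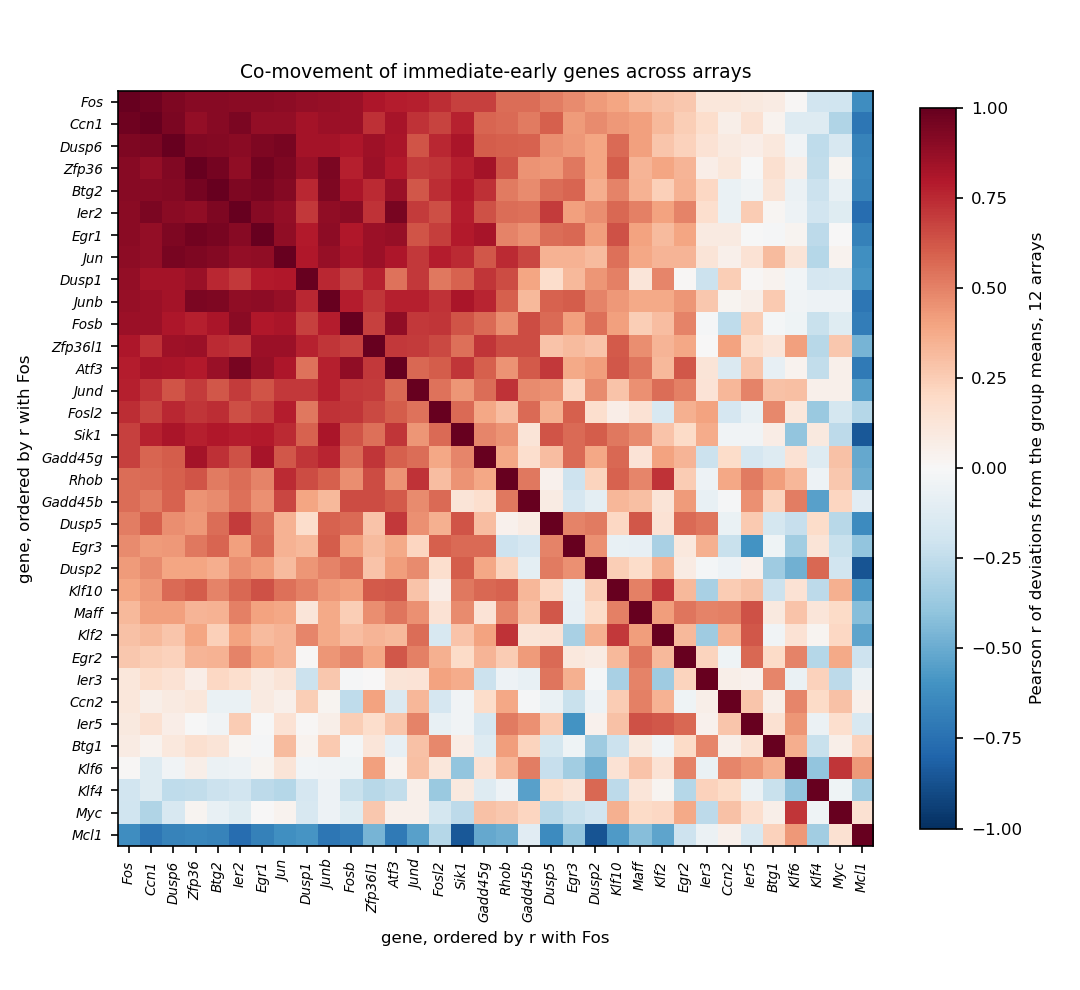
Pearson r between every pair of the 34 genes, over 12 arrays of deviations from the group means, with genes ordered by r with Fos. The r with Fos falls in small steps from Ccn1 (0.97) past Sik1 and Gadd45g (both 0.68) to Myc (-0.20). Mcl1 (-0.62) lies apart at the end. Pairs among the 15 genes past the threshold range from 0.45 (Jund and Sik1) to 0.97 (Zfp36 and Egr1).

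The threshold marks no break in the values. Gadd45g, just outside it, had the same r with Fos as Sik1, just inside it (0.68 each, permutation adjusted p = 0.0575 and 0.0459), and r = 0.83 with Zfp36 and 0.82 with Egr1. Lower values were those of Klf10 (r = 0.40, permutation adjusted p = 0.279) and of Maff, whose groups did not overlap (0.32, 0.424). Myc had r = -0.20 (permutation adjusted p = 0.635), Klf6 0.01 and Klf4 -0.19. An r between -0.3 and 0.3 was found for 9 of the 33 genes, among them Ier3, Ier5 and Btg1. Mcl1 ran against Fos, with r = -0.62 (permutation adjusted p = 0.0575) and rho = -0.81 (0.0103).

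The correlations rest in part on GFP 1 and hApoF 10, the 2 arrays farthest from the median Fos deviation. Without these 2 arrays, 5 of the 15 pairs had an adjusted p under 0.05: Ccn1 (r = 0.95, permutation adjusted p = 0.0165), Dusp1 (0.91, 0.0322), Zfp36 (0.88, 0.0492), Dusp6 (0.86, 0.0492) and Ier2 (0.84, 0.0492). Jun kept r = 0.80 (permutation adjusted p = 0.0578), Egr1 0.86 (0.0578) and Btg2 0.83 (0.0913). Within each group, where 6 arrays allow few orders, 5 pairs passed in the GFP group and 2 in the hApoF group.

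Since Fos summarises much of the array-to-array order, a fit with the Fos level of the same array as a covariate asks which genes differ at equal Fos. This fit was chosen after the data were seen, and it assumes 1 slope for both groups. Fos on 5 of the 6 hApoF arrays was above every GFP array, and only hApoF 10 lay within the GFP range. The differences at equal Fos therefore rest largely on the assumed slope. Of 33 genes, 0 were called higher and 2 lower by limma, Dusp1 and Ccn1, where the shares over all 22179 other genes were 0.298% and 1.53%. An unadjusted p under 0.05 was found for 1 of the 33 on the higher side and 4 on the lower, against 5.89% and 7.72% of all genes. A count of 0 higher is near the background share. For the other genes called higher in the comparison of the groups, the differences at equal Fos were 0.13 for Junb, 0.23 for Ier2, 0.10 for Zfp36, 0.30 for Btg2, 0.30 for Sik1 and 0.34 for Maff.

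In this fit Dusp1 was lower in hApoF at equal Fos (difference -0.89, SE 0.16, limma adjusted p = 0.0113). It kept this call in all 12 omissions of 1 array, although without GFP 4 and hApoF 12 together the limma adjusted p was 0.0508. Each omission kept Fos as the covariate with 1 slope, so the omissions are no independent check of that assumption. Ccn1 was lower by -0.64 (SE 0.12, limma adjusted p = 0.0134) and lost the call without hApoF 10 (0.117). Dusp1 and Ccn1 moved with Fos (r = 0.88 and 0.97), while their own group differences of -0.22 and 0.35 were not called. Differences below 0 at equal Fos follow from these values and the rise of Fos. Klf10 (-0.78, limma adjusted p = 0.0683) and Gadd45b (-0.90, 0.0864) were on the same side of 0 and did not pass.

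**Figure D4:**
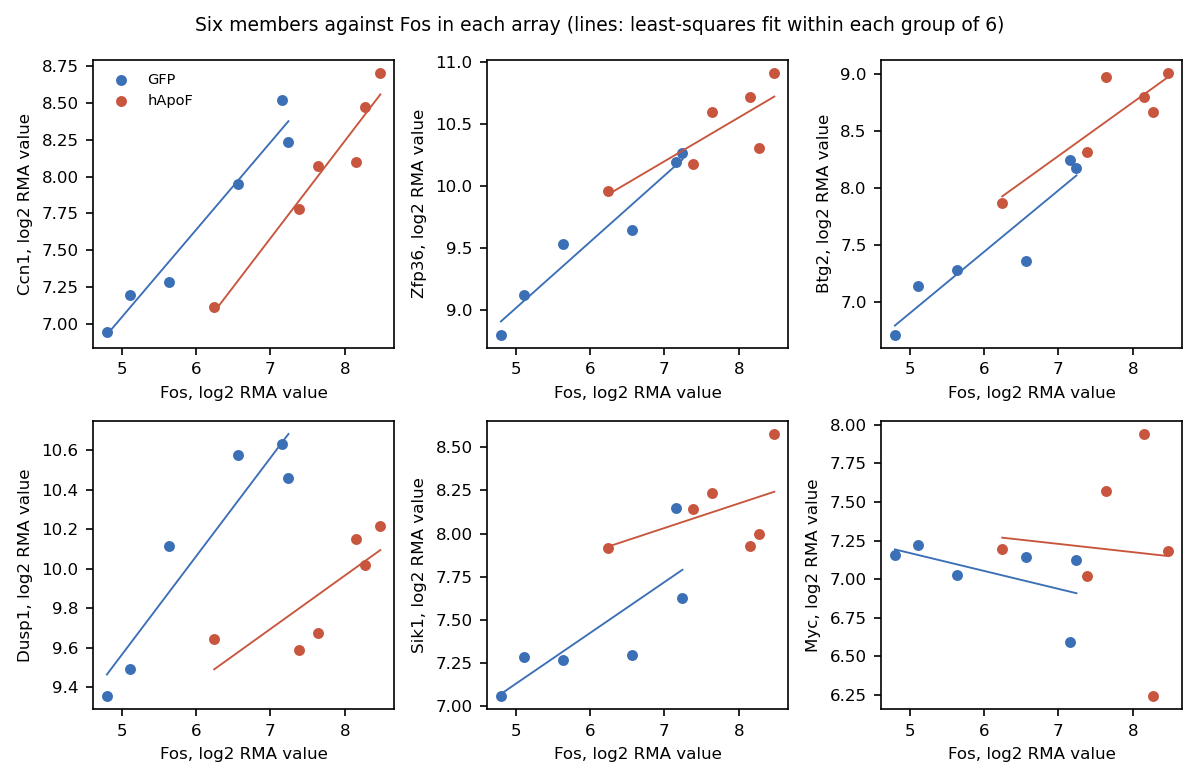
Log2 RMA level of Ccn1, Zfp36, Btg2, Dusp1, Sik1 and Myc against that of Fos, one point per array, with a least-squares line within each group of 6. In the fit with 1 slope for both groups, Dusp1 and Ccn1 were lower in hApoF at equal Fos (differences of -0.89 and -0.64). Zfp36 and Btg2 differed by 0.10 and 0.30 in that fit. Only hApoF 10 lies within the Fos range of the GFP points.

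The genes outside the class whose pattern was most like Fos, by Pearson r of the same deviations over 12 arrays, were Nr4a1 (r = 0.96), H2al1o (0.95), Cstdc1 (0.94), Tmem104 (0.93), Ubald1 (0.92), Ppp1r18 (0.90), Csnka2ip (0.89) and Srm (0.89). Nr4a1 is an orphan nuclear receptor and a known immediate-early gene, with mean levels of 6.44 and 7.35 and a difference of 0.90 (limma adjusted p = 0.279). H2al1o, Cstdc1 and Csnka2ip had levels under 4 in both groups, near the floor of the array, so their r describes values with little signal. None of the 8 genes was called between the groups.

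Further immediate-early genes outside the list, 28 in number, held 1 gene called higher, the transcription factor gene Cebpd (0.47, limma adjusted p = 0.0352), and 1 lower, the kinase gene Plk2 (-0.89, SE 0.14, 0.00127), with a median difference of 0.17. The shares called higher and lower were 3.57% each, against 2.11% and 4.8% of all genes and 20.6% and 2.94% of the 34. An r with Fos above 0.8 was held by 2 of the 28, or 7.14%, against 33.3% of the other members. Among 17 genes of the CREB pathway and fasting, Pck1, the gluconeogenic enzyme, rose by 0.44 (limma adjusted p = 0.00197) and Igfbp1, an insulin-repressed binding protein, by 1.19 (0.0225), and Prkaca, a catalytic subunit of protein kinase A, fell by 0.55 (2.77e-04). The median of that list was 0.06.

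The ERK list had 1 of 20 genes called, the kinase Braf, higher by 0.24 (limma adjusted p = 0.0374), and the JNK and p38 list 1 of 18, the p38 kinase kinase Map2k6, higher by 0.67 (0.0422). The integrated stress response list, which also holds targets of p53, had 1 of 14 higher, Eif2ak3 (0.29, limma adjusted p = 0.0380), and 3 lower, Cdkn1a (-2.29, 8.2e-06), Mdm2 (-0.57, 4.59e-04) and Sesn2 (-0.45, 0.0229). The other 10 were not called, among them Atf4 (0.05), Ddit3 (0.18), Trib3 (0.11), Chac1 (-0.08) and Asns (0.47). Differences in this list were above 0 for 8 and below 0 for 6, with a median of 0.08. Of 10 heat shock genes 1 was lower, Hsp90aa1 (-0.47, limma adjusted p = 0.00567). For 12 YAP and TEAD targets the limma test called 0, with 4 at an unadjusted p under 0.05 and a median of 0.11.

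Whole liver holds other cell types, and in bulk RNA fewer cells of a type and less RNA per cell cannot be told apart. Kupffer cell markers had a mean level of 6.40 to 7.61 in GFP and 7.02 to 7.93 in hApoF arrays. Of the 8, 2 were called higher, Clec4f (1.26, limma adjusted p = 0.0100) and Vsig4 (1.38, 0.0375). Differences were above 0 for 7 and below 0 for 1, Adgre1 (-0.13). Endothelial markers ran from 7.99 to 8.49 and from 8.31 to 8.73, with Kdr (0.44, limma adjusted p = 0.00894) and Tek (0.41, 0.0138) called higher among 8. Neutrophil and monocyte markers ran from 4.60 to 4.83 and from 4.62 to 5.26. Among these 6, Ccr2 and S100a9 were called higher, S100a9 at low mean levels of 3.97 and 4.37, and Ly6c2 differed by -0.16. Stellate markers ran from 7.29 to 7.64 and from 7.51 to 7.87, with Dcn and Pdgfrb called higher among 7. Stellate markers with a difference below 0 were Des (-0.09) and Col1a1 (-0.0044).

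T and NK, B cell, bile duct and hepatocyte lists had 0 genes called by limma, with 0, 1, 2 and 2 genes at an unadjusted p under 0.05. Markers of some of these cells also moved with Fos across arrays: r with Fos was above 0 for all 8 endothelial markers, from 0.39 (Kdr) to 0.75 (Cdh5) with a median of 0.58, and all 8 had a difference above 0, 6 of them at an unadjusted limma p under 0.05. For the 8 Kupffer markers r ran from 0.01 (Clec4f) to 0.53 (Marco) with a median of 0.43, for the 7 stellate markers from -0.11 (Des) to 0.82 (Pdgfrb) with a median of 0.31, and for the 6 neutrophil and monocyte markers from -0.40 (Ccr2) to 0.50 (Retnlg) with a median of 0.17. The median r over all genes was 0.03. Lists other than cell markers had medians of 0.34 (the 28 further immediate-early genes), 0.26 (CREB and fasting), 0.19 (ERK) and 0.08 (YAP and TEAD). Medians were below 0 for heat shock (-0.08), JNK and p38 (-0.13) and integrated stress response genes (-0.16). Bile duct, hepatocyte, T and NK and B cell markers had medians of 0.28, 0.21, 0.20 and 0.02. The part of the other cell types in the differences of the immediate-early genes was not tested.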

How the data were processed

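The deposited values were log2 RMA values per probe set, made with oligo and RMA per the submitters' processing notes; not given in the sources used here were tool versions, the array's build and its annotation release. Values of 35145 probe sets on 12 arrays were used as deposited, with 0 missing. Platform annotation named 23521 probe sets with 1 gene symbol, 1814 with several genes and 9810 with none, and the last 2 kinds were left out. The 22180 genes were fitted with limma 3.58.1 in R 4.3.3 (lmFit, eBayes, no covariates, Benjamini-Hochberg over all genes, threshold 0.05), checked on simulated data. The simulated noise was independent between genes, so the check does not cover genes that move together across arrays. Correlations with Fos used 100000 permutations within groups, with a smallest p of 1e-05. Tables were made with Python 3.11.15 and pandas 2.3.3.

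Named in full were genes with an adjusted p under 0.05 and Fos, Jun, Egr1, Atf3 and Myc. From each other list up to 4 called genes with the lowest p, or 2 where none was called, were eligible, and the 8 genes most like Fos left out predicted genes and multigene families. The members, lists and rules were chosen with earlier results of these data known. Alternatives were trend and robust settings, centring, a second quantile normalization, a filter on dim genes, the mean of probe sets, array weights, and omission of arrays. The number of arrays limits the precision.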

Additional observations from a re-analysis of the deposited data

Results flagged for a closer look

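In 68 groups of 6 arrays (34 genes in 2 groups), 9 single arrays stood apart from the others of their group, by a gap to the nearest array that took most of the group's range (Dixon's test). Chance gives about 1 in 20 groups. The test was not run over all genes, so the count has no background share. The 68 groups hold the same arrays and genes that move together, so they are not independent. Array weights from all genes were low for GFP 4 (0.63) and hApoF 12 (0.54), against 1.66 for GFP 1. GFP 4 was the array in 4 of them: high for Dusp2 (6.33, next 5.90), and low for Klf6 (6.28, next 6.73), Myc (6.59, next 7.03) and Mcl1 (9.09, next 9.34). hApoF 10 was low for Fosl2 (6.62, next 6.97) and Gadd45b (5.03, next 5.98). Single arrays were hApoF 9, high for Ier5 (5.71, next 5.47), hApoF 7, high for Btg1 (7.0003, next 6.82), and GFP 2, low for Maff (4.92, next 5.19).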

How the results depend on the processing

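The number of genes called higher, 7, was 3 with trend and robust settings (Fos, Junb, Ier2 and Zfp36 lost, while calls over all genes went up to 1946). With dim genes left out it was 11 (Egr1, Jun, Fosb and Gadd45g added), with the same differences and an adjustment over fewer genes. With the Fos level as a covariate, a setting chosen after seeing the data, it was 0. It was 7 to 10 under the other settings that kept all arrays, 8 without GFP 4 and hApoF 12 together, and 3 to 11 with each array left out. The number called lower, 1, was 0 after a second quantile normalization, 0 without GFP 4 and hApoF 12 together, 2 with the Fos covariate and 0 to 1 with each array left out. The 1533 genes called in all became 406 with the Fos covariate, and 1015 to 1988 with each array left out (1015, 1019 and 1021 on omitting GFP 3, GFP 2 and GFP 6 in turn). The cause was not tested.

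Of the Fos pairs, 15 passed, against 5 without the 2 arrays farthest in Fos, 5 in the GFP arrays alone and 2 in the hApoF arrays alone, where fewer arrays enter. Genes near 0 changed sign: Ier3 (0.0162 after quantile normalization, 0.0093 with array weights, -0.05 to 0.0435 with each array left out), Btg1 (-0.0188 to 0.12), Klf2 (-0.0187 with centred arrays, -0.0618 to 0.0768), Myc (-0.0181 without GFP 4 and hApoF 12, -0.0023 to 0.34), Rhob (0.0236 after quantile normalization, -0.12 to 0.0124) and Ccn2 (-0.12 with the mean of its probe sets, -0.0002 without GFP 4 and hApoF 12, -0.0163 to 0.13). Centring shifted the median difference of all genes from 0.03 to -0.0015. No paired analysis was possible because the groups share no replicate numbers. Egr2, Egr3 and Klf4 were among the dim genes that the filter left out, so that setting gives no value for them.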
